A study of Mus musculus with 6 samples.

Results

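The T cell regulatory and checkpoint genes described here are 10 named genes of the 32285 in the deposited count matrices: Foxp3, Ikzf2, Il2ra, Ctla4, Icos, Pdcd1, Tigit, Lag3, Tnfrsf4 and Tnfrsf18. They were found by gene symbol and read in the T Cell, T Reg and NK Cells classes and in the other cell classes the authors gave to each barcode. The data are droplet-based 3′ single-cell RNA counts of dissociated, live-sorted lung of wild-type C57BL/6N mice, counted as unique molecular identifiers (UMIs, 1 per captured RNA molecule). The study asked how the lung recovers from neonatal hyperoxia and whether recovery differs by sex. At postnatal day 21 there was 1 library each of females and males kept in room air (21% oxygen). There was also 1 library each of females and males exposed to 95% oxygen between day 1 and day 5, then returned to room air. Each library pooled lungs of 3 mice, so no combination of sex and treatment had a replicate. A further pair of libraries, female and male room air at day 1, held 0 cells of the T Cell and T Reg classes.

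Regulatory T cells restrain other lymphocytes and depend on the transcription factor Foxp3, often together with its partner Ikzf2 (Helios) and the high-affinity interleukin-2 receptor chain Il2ra. Ctla4, Pdcd1 (PD-1), Tigit and Lag3 are inhibitory receptors, called checkpoints, which bind ligands such as Cd80, Cd274 and Pvr on other cells. Icos and the tumour necrosis factor receptors Tnfrsf4 (OX40) and Tnfrsf18 (GITR) are costimulatory receptors. Several of these genes are not restricted to regulatory T cells: in lung, group 2 innate lymphoid cells (ILC2), gamma-delta T cells that make interleukin-17, and natural killer (NK) cells are known to carry some of them.

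In the GRCm38 annotation (GENCODE M21) all 10 are protein-coding genes. Ctla4 (chr1:60887000-60915832, plus strand) and Icos (chr1:60977927-61000320, plus strand) lie 62094 bases apart. Tnfrsf4 (chr4:156013843-156016612, plus strand) and Tnfrsf18 (chr4:156026164-156028895, plus strand) lie 9551 bases apart. The others are Foxp3 (chrX:7573644-7595245, plus), Il2ra (chr2:11642807-11693193, plus), Ikzf2 (chr1:69531214-69687245, minus), Pdcd1 (chr1:94038305-94052553, minus), Tigit (chr16:43648867-43664146, minus) and Lag3 (chr6:124904361-124911705, minus). On their own strand Foxp3 overlaps Flicr, Ctla4 overlaps Rpl18-ps1, Icos Gm37039, Il2ra Gm37881, and Ikzf2 both Gm29112 and Gm28112, so UMIs of such genes cannot be told apart where they share sequence.

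RefSeq promoter sequences (GRCm38.p6) were found for 7 of the 10 genes; Icos, Ikzf2 and Lag3 are named only. Those of Foxp3, Il2ra, Pdcd1 and Tigit are shown because the results below on which cells of the T Reg and NK Cells classes hold these genes turn on them. Each line gives the 250 bases before a transcript start, 5′ to 3′ in the direction of the gene; capitals mark GGAAA, the core of the site bound by NFAT factors downstream of the T cell receptor, or its reverse complement.
Foxp3 (chrX:7580233-7580482, plus strand, the downstream of 2 starts listed): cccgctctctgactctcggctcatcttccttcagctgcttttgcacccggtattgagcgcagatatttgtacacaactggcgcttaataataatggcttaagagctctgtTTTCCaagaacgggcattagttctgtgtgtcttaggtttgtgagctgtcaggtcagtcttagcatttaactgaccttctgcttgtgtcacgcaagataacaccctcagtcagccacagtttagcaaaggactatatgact
Il2ra (chr2:11642542-11642791, plus strand): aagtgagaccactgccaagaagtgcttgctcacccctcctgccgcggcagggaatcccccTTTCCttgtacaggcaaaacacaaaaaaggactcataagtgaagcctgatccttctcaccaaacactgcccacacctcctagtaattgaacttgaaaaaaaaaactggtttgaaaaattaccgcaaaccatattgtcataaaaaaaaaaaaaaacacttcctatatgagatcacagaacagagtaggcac
Pdcd1 (chr1:94052554-94052803, minus strand): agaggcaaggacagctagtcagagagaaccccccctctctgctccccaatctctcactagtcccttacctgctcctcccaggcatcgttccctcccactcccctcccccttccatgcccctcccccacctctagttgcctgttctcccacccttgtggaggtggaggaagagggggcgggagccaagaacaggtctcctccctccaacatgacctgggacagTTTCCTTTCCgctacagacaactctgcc
Tigit (chr16:43664185-43664434, minus strand): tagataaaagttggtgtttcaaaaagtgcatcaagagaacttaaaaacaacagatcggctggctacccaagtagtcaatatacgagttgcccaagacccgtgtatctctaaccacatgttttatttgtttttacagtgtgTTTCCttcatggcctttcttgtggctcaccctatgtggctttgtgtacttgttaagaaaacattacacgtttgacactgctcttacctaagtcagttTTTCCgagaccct
GGAAA on either strand was present in the window of all 7 genes, once or at 2 places, and also in 55.6% of all 32851 RefSeq promoter windows of this length. TGTGGT, the core bound by RUNX factors, was found on either strand in the Tigit window and in none of the other 6 genes' windows, against 14.1% of all windows. AGATAA, a core bound by GATA factors, was found in the Tigit window and in the downstream Foxp3 window, against 9.99% of all windows. These are matches of letters and carry no measurement of binding.

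The 4 day 21 libraries held 122173482 to 137510028 UMIs, and 7074 to 9119 cells per library had a class. The T Cell class held 184 cells in female room air, 882 in male room air, 815 in female hyperoxia and 721 in male hyperoxia, in the order used for all values per library below. The T Reg class held 231, 119, 278 and 312 cells, and the NK Cells class 82, 293, 312 and 212. Pairs of libraries shared 9 to 25 barcodes among their cells. In the female hyperoxia library 44.2% of T Cell, 38.5% of T Reg and 47.8% of NK Cells class cells had no UMI of Xist, the transcript of the inactive X chromosome. In the female room air library these shares were 7.07%, 3.46% and 6.10%. Of the Xist-free cells of the female hyperoxia library, 1 of 360 in the T Cell class, 0 of 107 in the T Reg class and 0 of 149 in the NK Cells class had a UMI of the Y-linked genes Ddx3y, Eif2s3y, Kdm5d and Uty.

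The female room air library stood apart in its T Cell class. The class was 2.16% of that library's cells against 7.91% to 12.5% in the others. Its summed level of 7 type 17 T cell markers was 153 CPM (UMIs of a gene scaled to 1e6 UMIs in all cells of the class) against 30.4 to 49.9 in the others. All 7 were detected there and 6 of 7 in each other library, where Il17a was at 0. Markers of ILC2 summed to 322 CPM against 72.7 to 129, cycling markers to 90.5 against 18.2 to 27.6, macrophage and monocyte markers to 165 against 45.03 to 70.7, NK cell markers to 586 against 355 to 448, and naive T cell markers to 3073 against 3678 to 3758. In the same class every one of the 10 genes was highest in that library. The part of class make-up in those levels was not tested.

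The label T Reg was checked against Foxp3 and against marker genes of other lymphocytes. Of the 940 cells of the class at day 21, 154 (16.4%, exact binomial 95% interval 14.1 to 18.9) had a Foxp3 UMI. Per library the share was 8.66%, 15.1%, 19.8% and 19.6%, compared with 7.61%, 3.29%, 3.80% and 5.13% in the T Cell class. In general capillary endothelium (gCap), which should lack the gene, it was at most 0.211%, at median depths of 7226 to 8694 UMIs per cell against 9198 to 11160 in the T Reg class. Thinned to 2000 UMIs per cell, which left out at most 4 T Reg cells per library, the T Reg shares were 6.17%, 4.35%, 10.5% and 9.97%. A cell without a Foxp3 UMI may still express the gene at this depth.

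Most other cells of the T Reg class carried markers of other lymphocytes. Cells without a Foxp3 UMI were sorted by at least 2 detected genes of 6 ILC2 markers (Il1rl1, Il5, Il13, Arg1, Calca, Il17rb) or of 7 type 17 markers (among them Trdc, Tcrg-C1, Il17a and Il23r). This sorting was chosen after seeing the data, and it is a description. ILC2 markers were found in 413 cells (43.9%), type 17 markers in 220 (23.4%), both sets in 14 (1.49%) and neither in 139 (14.8%). Cd3e, a chain of the complex that both kinds of T cell receptor need, had a UMI in 97.4% of the Foxp3 cells, 93.2% of the type 17 marker cells and 2.91% of the ILC2 marker cells. Trac, the constant region of the alpha chain, which gamma-delta receptors do not use, had one in 96.1%, 41.4% and 4.36%. Gata3, a factor of ILC2 and other lymphocytes, had one in 77.9%, 63.6% and 98.1%. In the T Cell class 7 of 2602 cells (0.269%) carried the ILC2 markers and 61 (2.34%) the type 17 markers. The class is called T Reg here only as the authors' name.

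**Figure D1:**
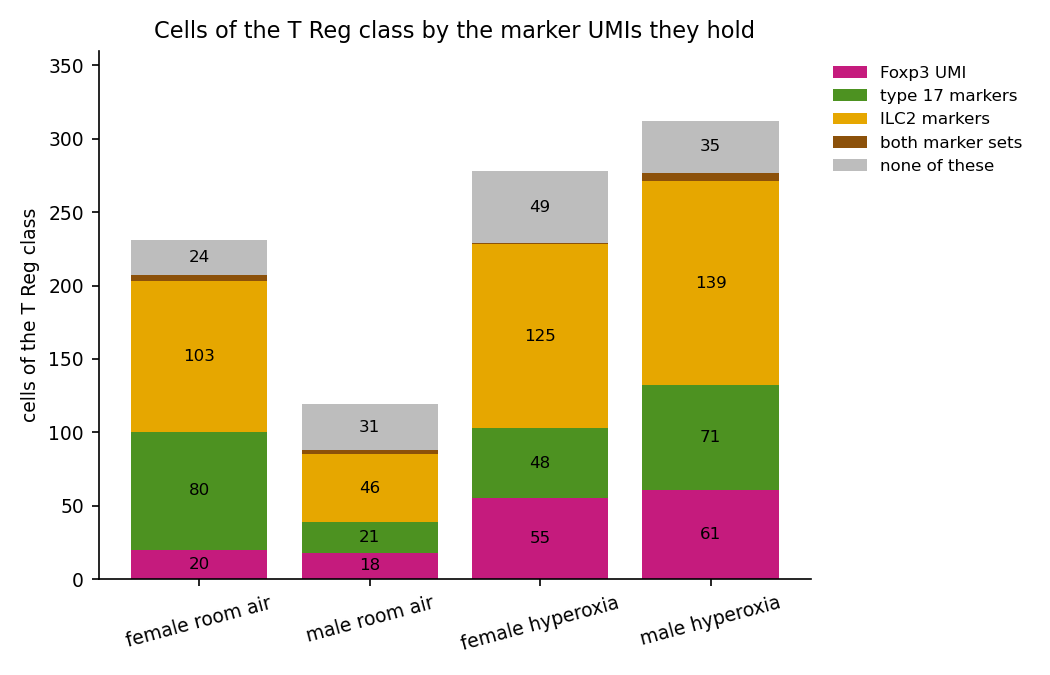
Number of cells of the T Reg class (y axis, cells) in each day 21 library (x axis), coloured by the marker UMIs they hold. Cells with ILC2 markers, 46 to 139 per library, outnumber cells with a Foxp3 UMI, 18 to 61 per library, in all 4 libraries.

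Levels are given as CPM of a class, summed over all cells of the class. They are compared between sets of cells and not between genes, and in a class level fewer expressing cells and less RNA per cell cannot be told apart. Exact Poisson and binomial intervals cover counting error only.

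Foxp3, the lineage factor of regulatory T cells, had 22.1, 6.94, 9.58 and 13.3 CPM in the T Cell class and 33.0, 58.1, 60.7 and 65.7 CPM in the T Reg class. In the NK Cells class it had 0, 1.47, 0 and 0.485 CPM, where a count of 0, read as up to 3 counts, allows up to 2.45 and 0.867 CPM in the 2 female libraries; the upper ends of the exact two-sided Poisson 95% intervals are 3.01 and 1.07 CPM. The T Reg values lay above all T Cell values, and gCap had at most 0.257 CPM. All 5 Foxp3 UMIs of the NK Cells class in male room air lay in 1 cell, which held a Cd3e or Trac UMI. Ikzf2 had 609, 91.2, 173 and 188 CPM in the T Cell class, 611, 652, 674 and 658 in the T Reg class and 338, 205, 280 and 186 in the NK Cells class. The T Reg values of Ikzf2 were close together, while its T Cell value in female room air was as high as in the T Reg class and the other 3 were far lower. Il2ra had 20.4, 13.0, 14.7 and 10.6 CPM in the T Cell class and 255, 257, 295 and 284 CPM in the T Reg class. It was 12.5 to 26.7 times as high in the T Reg class, with a mean log2 ratio of 4.25 ± 0.46 (SD, n = 4 libraries), the highest of the 10 genes.

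Among the inhibitory receptors, Ctla4 had 204, 68.3, 75.5 and 117 CPM in the T Cell class and 233, 413, 337 and 322 CPM in the T Reg class. Pdcd1 had 14.97, 1.33, 2.29 and 2.83 CPM in the T Cell class and 50.5, 43.2, 46.0 and 66.0 CPM in the T Reg class. Both were higher in the T Reg class in every library, Pdcd1 by a mean log2 ratio of 3.89 ± 1.46 (SD, n = 4) and Ctla4 by 1.60 ± 1.05. Tigit departed from this order. Its highest class was NK Cells, with 24.5, 14.95, 25.1 and 34.4 CPM, against 5.96, 7.45, 11.04 and 9.70 CPM in the T Reg class and 9.18, 2.76, 3.54 and 5.79 CPM in the T Cell class. The NK values did not overlap those of either T class, and the T Reg and T Cell values overlapped each other. Lag3 had 21.2, 6.74, 8.96 and 2.42 CPM in NK Cells, 1.40, 2.23, 6.13 and 2.19 CPM in the T Reg class and 5.78, 0.715, 1.15 and 0.673 CPM in the T Cell class. These ranges overlapped, and in the T Cell class the share of cells with a Lag3 UMI was not above that of gCap in every library.

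Of the costimulatory receptors, Icos had 288, 85.9, 108 and 107 CPM in the T Cell class, 365, 393, 373 and 345 in the T Reg class and 127, 57.2, 57.2 and 113 in the NK Cells class. Tnfrsf4 had 24.8, 8.78, 9.79 and 11.7 CPM in the T Cell class and 23.5, 67.8, 85.8 and 74.4 CPM in the T Reg class, and at most 2.02 CPM in NK Cells. Its T Reg value in female room air was below all others of that class and within the T Cell range. Tnfrsf18 had 76.5, 131, 157 and 139 CPM in the T Reg class, 54.7, 70.1, 59.2 and 80.0 CPM in NK Cells and 44.2, 33.1, 34.7 and 37.4 CPM in the T Cell class. It was the 1 costimulatory gene of the 3 that was higher in NK Cells than in the T Cell class in every library.

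**Figure D2:**
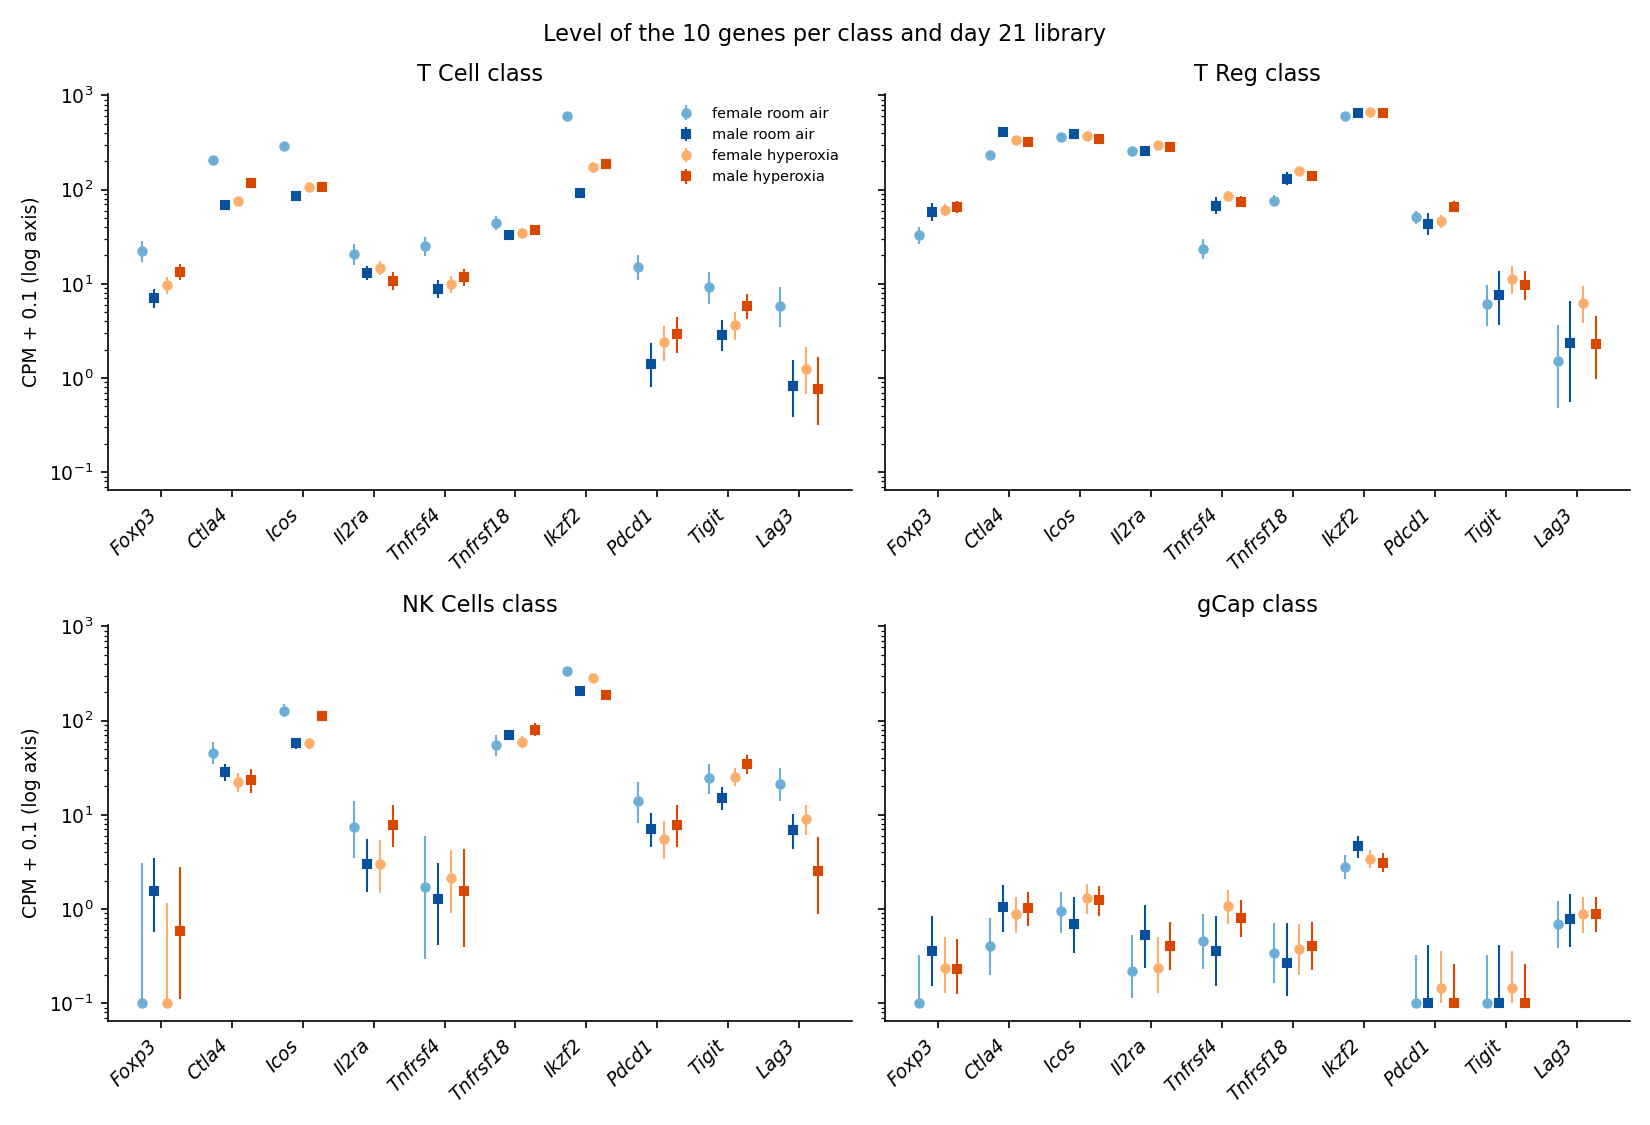
CPM plus 0.1 of each of the 10 genes (log y axis) in the T Cell, T Reg, NK Cells and gCap classes; points are the 4 day 21 libraries and bars exact Poisson 95% intervals. Female room air is the highest library for all 10 genes in the T Cell class, Tigit is highest in NK Cells, and gCap stays at or below 1.2 CPM except for Ikzf2 (2.71 to 4.53).

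Across these classes 7 of the 10 genes were higher in the T Reg than in the T Cell class in all 4 libraries, and Tnfrsf4, Tigit and Lag3 in 3 of 4. For Ikzf2 in female room air the ratio was 1.003 (exact 95% interval 0.938 to 1.072), so the 2 levels did not differ beyond counting error there. The exception for each of the 3 others was also female room air, where the T Reg to T Cell ratio was 0.947 for Tnfrsf4, 0.650 for Tigit and 0.243 for Lag3. The classes were clustered from these same cells, so the ratios are descriptions and were not tested. The share of all genes that were higher in the T Reg class in all 4 libraries is not given here. Detection, as a percentage of cells, exceeded that of gCap in all 4 libraries for all 10 genes in T Reg, for 9 in T Cell (not Lag3) and for 9 in NK Cells (not Foxp3). Thinned to 2000 UMIs per cell, it did so for 9 in T Reg (not Lag3), 9 in T Cell (not Lag3) and 7 in NK Cells (not Foxp3, Lag3 or Tnfrsf4).

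Within the T Reg class the 10 genes fell to different cells. Ctla4 had 1336, 1777, 1406 and 1236 CPM in the Foxp3 cells of the 4 libraries. Over all libraries it was 1375 CPM there, 108 in type 17 marker cells and 12.9 in ILC2 marker cells. The Foxp3 cells, 16.4% of the class, held 79.1% of its Ctla4 UMIs. Tnfrsf4 had 287 CPM in Foxp3 cells against 2.36 in type 17 marker cells and 5.75 in ILC2 marker cells, and 81.5% of its UMIs lay in Foxp3 cells. Tigit had 39.7, 35.2, 40.9 and 42.4 CPM in Foxp3 cells and at most 3.43 CPM in the type 17 and 1.72 CPM in the ILC2 marker cells of any library. Lag3 had 21 UMIs in Foxp3 cells (10.9 CPM), 1 in ILC2 marker cells and 0 in type 17 marker cells. Ikzf2 was also highest in Foxp3 cells (1832 CPM, against 546 and 299.5 CPM in type 17 and ILC2 marker cells), with about as many UMIs outside these cells as in them (50.9% inside).

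Il2ra, Pdcd1, Icos and Tnfrsf18 extended to the other cells of the class. Il2ra was highest in ILC2 marker cells, at 398, 471, 519 and 440 CPM per library. In Foxp3 cells it had 290, 167, 152 and 185 CPM, below the ILC2 marker cells in every library, and ILC2 marker cells held 67.6% of the Il2ra UMIs of the class. Pdcd1 was highest in type 17 marker cells, at 98.7, 51.6, 56.7 and 164 CPM, against 24.4 to 48.5 CPM in Foxp3 cells and 26.6 to 42.3 CPM in ILC2 marker cells. A Pdcd1 UMI was found in 47.7% of type 17 marker cells, 22.8% of ILC2 marker cells and 18.8% of Foxp3 cells. Icos had 623 CPM in Foxp3 cells, 391 in type 17 marker cells and 233 in ILC2 marker cells. Tnfrsf18 had 302 CPM in Foxp3 cells, 127 in ILC2 marker cells and 20.8 in type 17 marker cells. The T Reg levels of Il2ra and Pdcd1 thus came mostly from cells without a Foxp3 UMI: the Foxp3 cells held 12.4% and 13.9% of their UMIs.

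**Figure D3:**
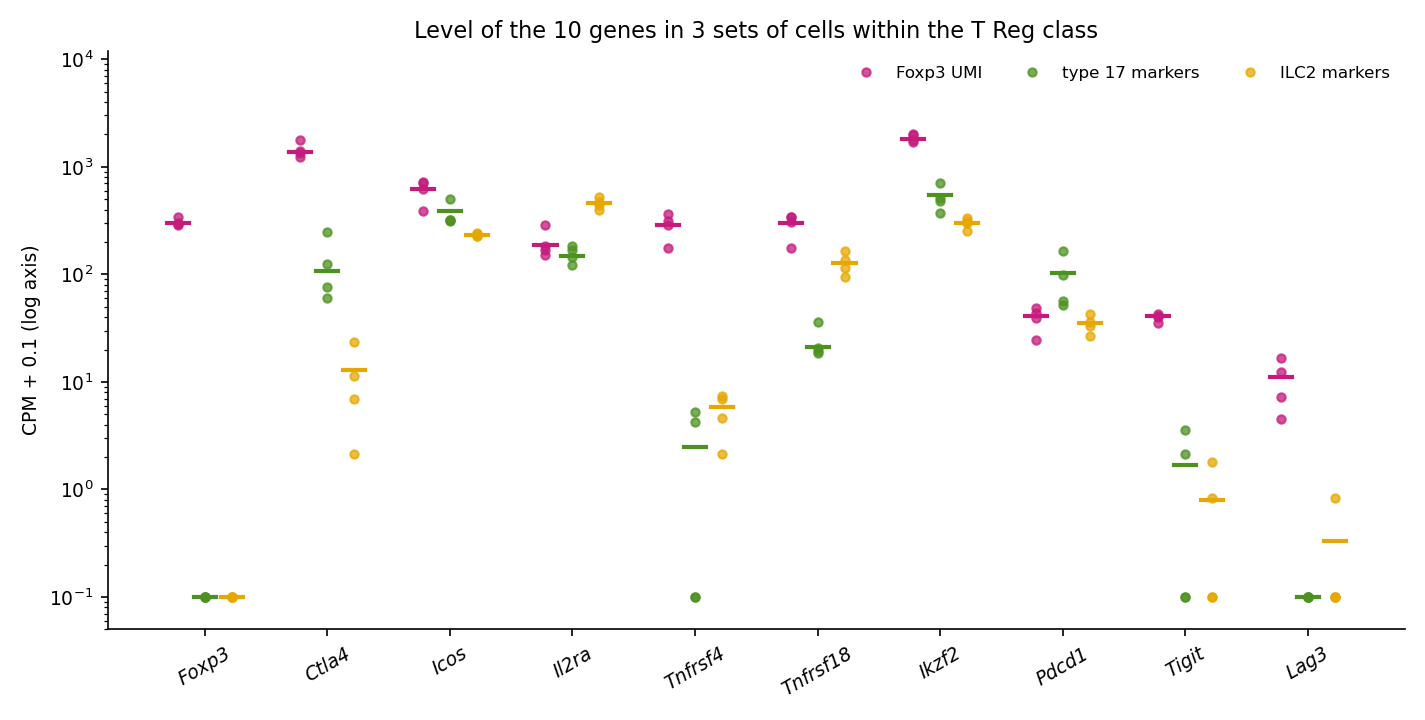
CPM plus 0.1 (log y axis) of the 10 genes (x axis) in 3 sets of T Reg class cells; points are the 4 day 21 libraries and bars the value pooled over them. Ctla4, Tnfrsf4 and Tigit stand highest in cells with a Foxp3 UMI, Il2ra in cells with ILC2 markers and Pdcd1 in cells with type 17 markers; Foxp3 itself defined the first set.

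The T Cell class also held Foxp3 cells, 111 of 2602 (4.27%), with 14, 29, 31 and 37 per library. In them Ctla4 was 8.78 to 13.5 times, Ikzf2 10.0 to 14.8 times, Il2ra 7.24 to 83.4 times and Tnfrsf4 9.23 to 45.9 times as high per UMI as in the other T Cell class cells of the same library. Tnfrsf18 was 3.39 to 5.60 times and Icos 1.22 to 3.17 times as high, and the ratio of Tigit was 1.00 to 2.64 with intervals that include 1 in every library. The ratio of Pdcd1 was 1.17 to 7.15, from 16, 2, 1 and 5 UMIs in Foxp3 cells. The 16 UMIs of female room air, where the ratio was highest, all lay in 1 of the 14 cells (7.14%). The intervals of the Pdcd1 ratio include 1 in male room air and female hyperoxia. Lag3 had 7, 1, 0 and 0 UMIs in Foxp3 cells. Foxp3 cells of the 2 classes differed in other genes. Ccr7, a homing receptor of naive T cells, had a UMI in 71.2% of Foxp3 cells of the T Cell class and 11.7% of those of the T Reg class. In female room air, with 14 and 20 such cells, the shares were 35.7% and 25.0%, and in the other libraries 72.4% to 83.9% against 9.09% to 11.1%. Il1rl1, the receptor of interleukin-33, had one in 15.3% against 53.9%, and Klrg1 in 5.41% against 51.9%. These 3 genes were chosen after their values were seen, and the split follows the authors' clustering. In the T Cell class Foxp3 had 56.0, 12.8, 16.6 and 18.8 CPM in cells with a Cd4 and no Cd8 UMI, and 0, 0.552, 0.917 and 2.17 CPM in cells with a Cd8 and no Cd4 UMI. Tigit ran the other way, with 6.88, 0.948, 1.56 and 3.75 CPM on the Cd4 side and 13.2, 5.79, 5.50 and 9.39 CPM on the Cd8 side.

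The NK Cells class was also mixed. A Cd3e or Trac UMI was found in 332 of its 899 cells (36.9%), of which 21.4% had a UMI of the NK receptor Ncr1, while 97.5% of the 567 other cells had one. This split was chosen after seeing the data too. Ctla4 had 57.7 CPM in the cells with Cd3e or Trac and 6.02 CPM in the others, Icos 148 against 27.1, Ikzf2 451 against 97.8 and Pdcd1 17.2 against 0.669. Tnfrsf18 had 62.1, 83.2, 61.3 and 84.4 CPM in the cells without Cd3e and Trac and 49.6, 49.6, 56.0 and 72.9 CPM in those with them, higher without in all 4 libraries. Tigit had 30.1, 16.8, 32.0 and 34.4 CPM without and 20.7, 12.03, 14.2 and 34.5 CPM with them, higher without in 3 of 4 libraries.

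**Figure D4:**
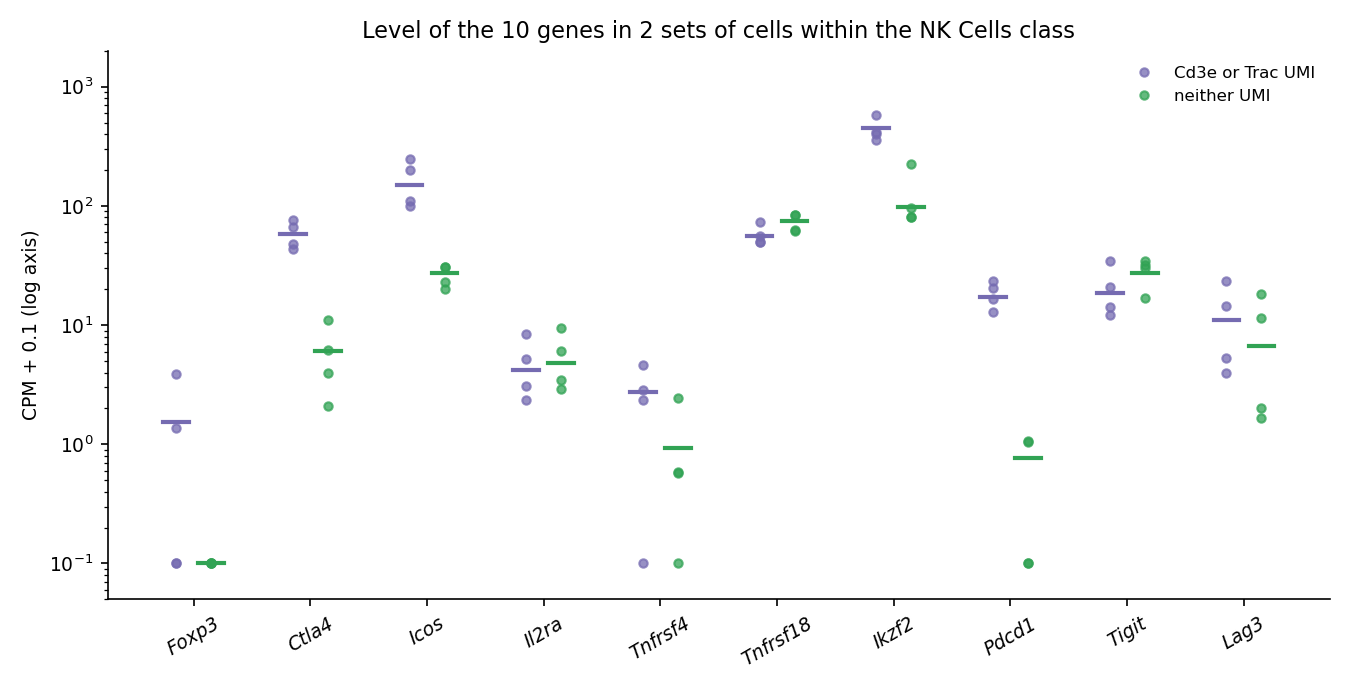
CPM plus 0.1 (log y axis) of the 10 genes (x axis) in cells of the NK Cells class with and without a Cd3e or Trac UMI; points are the 4 day 21 libraries and bars the pooled value. Ctla4, Icos, Ikzf2 and Pdcd1 are higher with Cd3e or Trac (57.7 against 6.02 CPM for Ctla4), and Tnfrsf18 and Tigit are not.

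Hyperoxia was compared with room air by edgeR's quasi-likelihood test on counts summed per class and library, with sex as a covariate. With 4 libraries and 1 residual degree of freedom, the p-values rest on the difference between the sexes in their response, shared in part over genes. They measure no spread between replicates, and a gene that changes in opposite directions in the sexes gets a high p. No gene passed a Benjamini-Hochberg adjusted p of 0.05 in the T Cell (12089 tested, 0% called), T Reg (11068, 0%) or NK Cells class (10661, 0%). At an unadjusted p under 0.05 there were 172, 289 and 961 genes, and DESeq2 called 1, 1 and 34. Of the 10 genes, 0 of 9 tested in T Cell, 0 of 9 in T Reg and 0 of 8 in NK Cells passed, with edgeR and with DESeq2, and 0, 0 and 2 had an unadjusted p under 0.05. Counts of the same size were simulated with the same assumed spread for every gene (negative binomial dispersion 0.05) and no difference between the sexes. On them the test recovered 92.3% of genes changed 4-fold in the T Cell class but 11.3% of those changed 2-fold. In the T Reg class the shares were 92.3% and 8.16% and in NK Cells 86.8% and 1.55%, so 2-fold changes were mostly not detectable. These shares do not apply to genes whose spread is larger than the simulated one.

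In the T Cell class all 9 tested members had a negative estimate after hyperoxia, with a median of −0.37 on the log2 scale against −0.0029 over all genes tested. The estimates ran from −0.07 for Tnfrsf18 (SE 0.15) to −0.94 for Pdcd1 (SE 0.95), each with an adjusted p of 1 by edgeR's quasi-likelihood test. In this class the direction of change differed between the sexes for some members. Il2ra was 0.720 and 0.820 times as high after hyperoxia in females and males, and Lag3 0.198 and 0.941 times. For Ikzf2, Foxp3 and Ctla4 the sexes lay further apart in room air than after hyperoxia. Ikzf2 had 609 and 91.2 CPM in female and male room air and 173 and 188 CPM after hyperoxia. Foxp3 was 0.433 times as high after hyperoxia in females (exact 95% interval 0.312 to 0.605) and 1.92 times in males (1.40 to 2.65). Ikzf2 was 0.285 times as high in females (0.266 to 0.304) and 2.06 times in males (1.89 to 2.24), and Ctla4 0.371 and 1.72 times. The female ratios rest on the female room air library, whose T Cell class stood apart. Fits of 3 libraries had no sex term, since that term would leave no residual degree of freedom, so a value without 1 library differs in both the library and the covariate. The 4 libraries without the sex term gave 0 called members in the T Cell, T Reg and NK Cells classes, with Ikzf2 at −0.87 in the T Cell class. Without female room air, which leaves only the male room air library against hyperoxia, the log2 estimate of Ikzf2 was 0.91. Ctla4 was at 0.42 and Foxp3 at 0.63. Without male room air, which leaves only the female room air library against hyperoxia, Ikzf2 was at −1.65 and Ctla4 at −0.98. Cells of the female hyperoxia library with an Xist UMI gave the same side of the threshold for all 9.

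In the T Reg class 8 of 9 members had a positive estimate (median 0.23, all genes −0.0004), and none was called. Tnfrsf4 was at 1.00 (SE 0.41, p 0.0501), Tnfrsf18 at 0.58 (SE 0.25, p 0.0618) and Foxp3 at 0.54 (SE 0.23, p 0.0550), each with an adjusted p of 1.00 by edgeR's quasi-likelihood test. For these 3 genes female room air was the lowest library and the other 3 were close together. Foxp3 cells were 8.66% of the class in female room air, and the Foxp3 cells' own Tnfrsf4 level was also lowest there, at 174 CPM against 289 to 365. Their Tnfrsf18 level was 177 CPM against 308 to 343. Type 17 marker cells were 34.6% of the class in female room air against 17.3% to 22.8% in the others, and the 7 type 17 markers summed to 1736 CPM against 709 to 1298. Of the class as a whole, 4 cycling markers summed to 188 CPM in female room air against 38.0 to 67.6 in the others. Macrophage and monocyte markers summed to 648 CPM there against 393 to 489. The 4 endothelial markers summed to 150.5 and 141.5 CPM in room air against 238 and 254 after hyperoxia. The part of these in the members' values was not tested. Without male room air and the sex term, which leaves only the female room air library against hyperoxia, Tnfrsf4 was at 1.82 and Tnfrsf18 at 1.00. With 4 libraries and no sex term they were at 0.93 and 0.55 and not called. Without female room air and the sex term, which leaves only the male room air library, they were at 0.21 and 0.14. Il2ra, Ctla4, Ikzf2 and Icos had estimates between −0.07 and 0.19, with SEs of 0.13 to 0.24.

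In NK Cells Lag3 had an estimate of −1.36 (SE 0.40, p 0.0165, adjusted p 0.425) and Ctla4 of −0.71 (SE 0.25, p 0.0315, adjusted p 0.496) by edgeR's quasi-likelihood test. Lag3 was lower after hyperoxia in both sexes, 0.422 times in females (0.243 to 0.740) and 0.360 times in males (0.107 to 0.967), from 26, 23, 31 and 5 UMIs. The cell with the most held 30.8%, 26.1%, 48.4% and 60.0% of those. Fits of 3 libraries without the sex term gave Lag3 estimates from −2.42 without female hyperoxia to −0.23 without female room air, none called. The cells with Cd3e or Trac were 56.1% of the class in female room air and 33.0% to 37.9% in the other libraries, and the 4 cycling markers summed to 535 CPM there against 112 to 242. The 4 endothelial markers summed to 84.9 and 118 CPM in room air and 258 and 299 CPM after hyperoxia. The part of these in the Ctla4 and Lag3 values was not tested. Without male room air and the sex term, which leaves only the female room air library against hyperoxia, Ctla4 was at −1.03 in NK Cells. With 4 libraries and no sex term Ctla4 was at −0.69 and not called. In NK Cells the interaction of sex and hyperoxia was fitted with the day 1 libraries (1 of 11237 genes called, 0.0089%). This fit takes the sex difference in room air to be the same at day 1 and day 21, and the ages also differ in Cell Ranger version (6.0.0 and 7.0.1). Icos had the lowest p of the members, with an interaction of −1.40 (SE 0.50, p 0.0170, adjusted p 1 by edgeR).

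**Figure D5:**
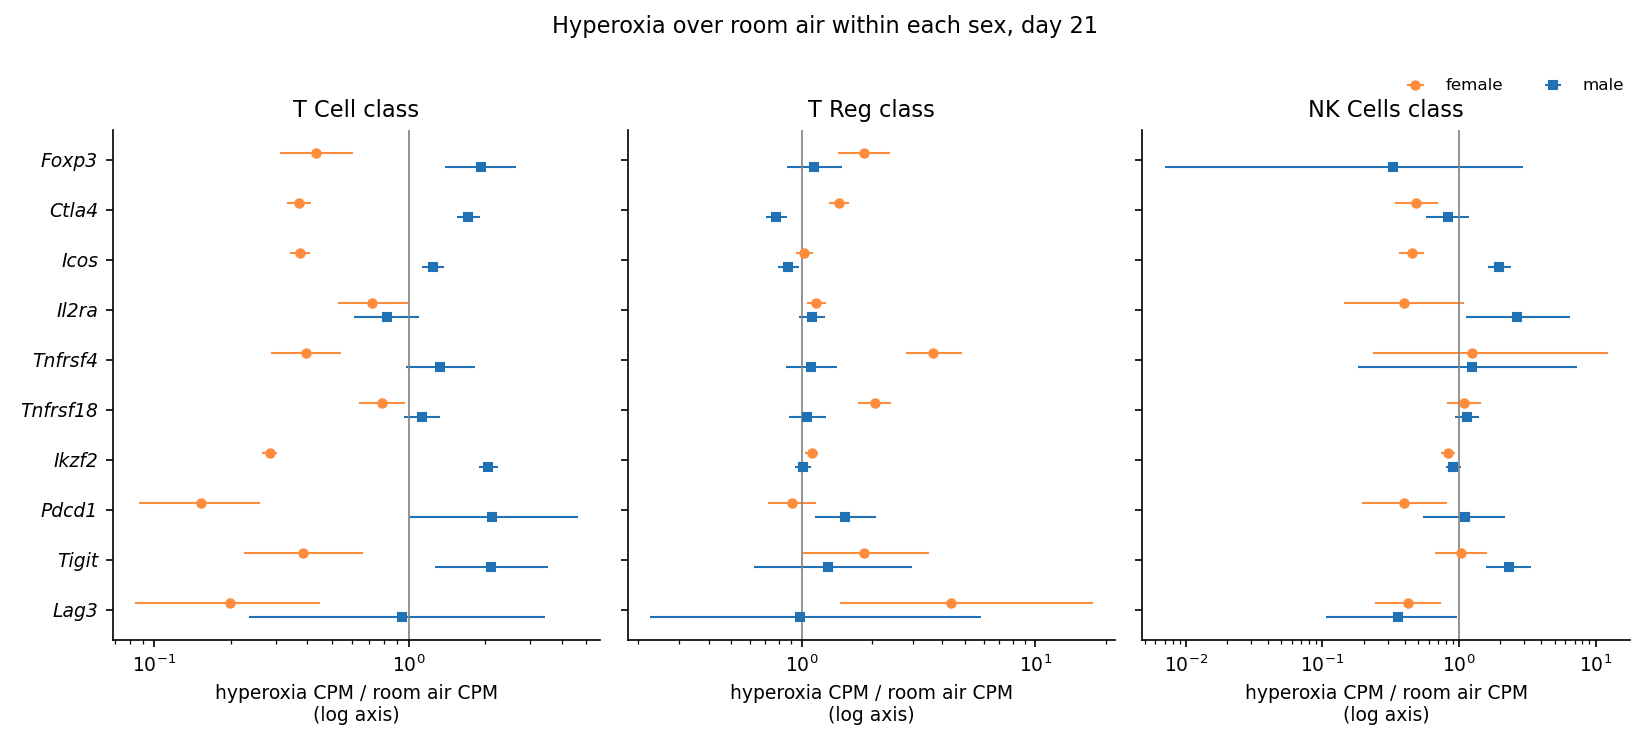
Ratio of hyperoxia CPM to room air CPM (log x axis) of the 10 genes within females and males in 3 classes, with exact 95% intervals from counting error only. In the T Cell class Foxp3, Ctla4, Icos, Ikzf2, Pdcd1 and Tigit lie below 1 in females and above 1 in males, with intervals that exclude 1.

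Female was compared with male in the same fits. The calls over all genes were 5 in T Cell (0.0414%), 5 in T Reg (0.0452%) and 6 in NK Cells (0.0563%), and none was one of the 10 genes (0 of 9, 9 and 8 tested, 0 with DESeq2). In NK Cells 3 members had an unadjusted p under 0.05. The share of all genes under that cut in this comparison is not given here, so the count is not a result particular to the members. Ikzf2 was at 0.63 (SE 0.11, p 0.00175) and Lag3 at 1.70 (SE 0.40, p 0.00678), both higher in females in room air and after hyperoxia. Tnfrsf18 was at −0.42 (SE 0.14, p 0.0243), lower in females in both. Their adjusted p was 0.995 by edgeR's quasi-likelihood test. In fits of 3 libraries without a covariate the Lag3 estimate ran from 0.82 without female room air to 2.56 without male room air, and none was called. The cells with Cd3e or Trac, in which Ikzf2 was higher, were 56.1% of female and 37.9% of male room air NK Cells, and 33.0% and 34.0% after hyperoxia. In female room air 28.7% of the Ikzf2 UMIs of the class lay in 1 cell. Their part in the sex estimate was not tested.

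Other lists of related genes were read from the same fits. For hyperoxia against room air, 0 of 18, 17 and 14 tested genes of a regulatory T cell list of 19 (such as Nrp1, Izumo1r and Itgae) were called in T Cell, T Reg and NK Cells. The same held for 0 of 9, 9 and 9 tested of 13 checkpoint and costimulator ligands and 0 of 12, 11 and 12 tested of 12 further inhibitory receptors and exhaustion genes. At an unadjusted p under 0.05 the counts were 1, 3 and 0 for the regulatory T cell list, 0, 2 and 0 for the ligands and 1, 2 and 2 for the last list. Ligand levels were ranked over the 14 classes with at least 50 cells in each day 21 library, which leave out Dendritic Cells and Basophils. Of the 13 ligand genes, 4 (Il2, Pdcd1lg2, Tnfsf18 and Tnfsf4) had their highest day 21 level in the T Reg class. Tnfsf18 and Tnfsf4 were low there, at means of 1.79 and 3.56 CPM, with 0 and 1.40 CPM in the lowest library. Cd274 (PD-L1) was highest in alveolar macrophages (107 CPM, mean of 4 libraries), Cd80 in neutrophils (150) and Cd86 in classical monocytes (97.3), and Pdcd1lg2 (PD-L2) had 30.01 CPM in the T Reg class. Cd274 fell in gCap after hyperoxia, at −1.16 on the log2 scale (SE 0.23, adjusted p 0.00432 by edgeR's quasi-likelihood test; 2.53% of genes called). It also fell in nonclassical monocytes, at −0.40 (adjusted p 0.0133 by edgeR; 6.03% called). Nectin3, an adhesion molecule of the nectin family, rose in alveolar macrophages, at 2.71 (SE 0.40, adjusted p 1.63e-05 by edgeR; 10.9% called), and in nonclassical monocytes, at 1.74 (SE 0.37, adjusted p 0.01405 by edgeR). Of the further inhibitory receptors and exhaustion genes, 4 of 9 tested rose in alveolar macrophages (Btla, Nr4a1, Tox and Tox2) and Cd200r1 fell. In nonclassical monocytes Tox and Tox2 rose while Havcr2 and Lair1 fell. Naive T cell markers were called higher in both classes, 5 of 6 in alveolar macrophages and 1 of 6 in nonclassical monocytes, and their part in these values was not tested. These 6 markers also summed to 860 to 1039 CPM in gCap, so they are not particular to T cells here.

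The share of the T Reg class among T Cell and T Reg cells went opposite ways in the sexes. It was 55.7% (exact 95% interval 50.7 to 60.5) in female room air, 11.9% (9.95 to 14.1) in male room air, 25.4% (22.9 to 28.1) in female hyperoxia and 30.2% (27.4 to 33.1) in male hyperoxia. Cells with a Foxp3 UMI among the same cells were 8.19% (5.74 to 11.3), 4.70% (3.47 to 6.20), 7.87% (6.34 to 9.63) and 9.49% (7.77 to 11.4). The female intervals overlapped and the male ones did not. After hyperoxia the class share was 30.2 points lower in females and the Foxp3 cell share 0.325 points lower, and in males they were 18.3 and 4.79 points higher. Among cells with a Trac UMI the Foxp3 cell share was 3.98 points lower in females and 7.12 points higher in males. The female intervals overlapped here too (9.11 to 17.9 in room air, 7.28 to 11.2 after hyperoxia). Over cells with Trac or Cd3e the class share was 24.2 points lower in females and 11.4 points higher in males. Of all cells with a class, T Reg cells were 2.71%, 1.68%, 3.33% and 3.42%, higher after hyperoxia in both sexes. T Cell class cells were 2.16%, 12.5%, 9.75% and 7.91% of them, higher after hyperoxia in females and lower in males. Each share rests on 1 library, so the differences have no replicate check.

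Outside the T Cell, T Reg, NK Cells and proliferating T cell classes the members were mostly low. Proliferating T cells held 316 UMIs of Ikzf2, 102 of Ctla4, 52 of Icos and 25 of Foxp3 in female hyperoxia. In female room air they held 142 UMIs of Ikzf2. The levels of the members in that class are not given here. The order of classes was T Reg, then T Cell, for Foxp3 (54.4 ± 14.6 and 13.0 ± 6.62 CPM; mean ± SD over 4 libraries), and the next of 14 classes with enough cells, Arterial, had 0.737 ± 0.996 CPM. Lag3 had another order. Its highest class was Myofibroblasts at 23.4 ± 5.94 CPM (range 15.3 to 29.5), and 63.1% of its UMIs in cells with a class lay outside the T Cell, T Reg, NK Cells and proliferating T cell classes. NK Cells came next at 9.84 ± 8.06, and the 2 ranges overlapped. Basophils, with 74 and 57 cells in the room air libraries, had 527 and 409 CPM of Ikzf2 and 44.7 and 40.7 CPM of Tnfrsf18. Dendritic Cells had 24.8, 21.8 and 27.3 CPM of Tnfrsf18 in the 3 libraries that held 107 to 234 such cells. B Cells had 54.8 CPM of Ikzf2 in female room air, with all 75 UMIs in 1 cell.

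Ikzf2 was the only member called in any of the 13 classes tested, in 2 classes for hyperoxia and 2 for sex, of 53 pairs of a member and a class tested in each. Over all genes 2.28% of such pairs were called for hyperoxia and 0.37% for sex. No member was called for hyperoxia in classical monocytes (1.76% of genes called), for sex in gCap (0.534%) or nonclassical monocytes (0.256%), or for the interaction in alveolar macrophages (0.0499%) or gCap (0.267%). In alveolar macrophages Ikzf2 had 28.9, 29.3, 10.0 and 24.2 CPM and fell by 0.78 on the log2 scale after hyperoxia (SE 0.22, adjusted p 0.0168 by edgeR's quasi-likelihood test; 10.9% of genes called in this class). The female hyperoxia value came from 23 UMIs in 136 cells. With all 4 libraries and no sex term it was −0.69 and not called (adjusted p 0.216). The fits of 3 libraries, also without that term, gave −0.30 (adjusted p 0.418) without female hyperoxia, −0.72 (adjusted p 0.156) without female room air and −0.70 (adjusted p 0.108) without male room air. With only Xist-holding cells of female hyperoxia it was −0.73 (adjusted p 0.0968), and by DESeq2 −0.92 (adjusted p 0.420). In the same class 5 of 6 naive T cell markers were called higher after hyperoxia (median 2.47 on the log2 scale), and their part in the Ikzf2 value was not tested. These markers were also found in gCap (860 to 1039 CPM summed) and are not particular to T cells.

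The 3 other calls rested on few cells. In Arterial cells, Ikzf2 had 47 UMIs in female room air, of which 66.0% lay in 1 cell. It was called for hyperoxia at −1.47 (adjusted p 0.0498 by edgeR; 2.12% called), and not with only Xist-holding cells of female hyperoxia (−1.34, adjusted p 0.164). It was called for sex at 2.26 (adjusted p 0.000744; 1.07% called). With no sex or hyperoxia covariate the 4 libraries gave −1.66 (adjusted p 0.581) for hyperoxia and 2.44 (adjusted p 0.600) for sex, neither called. Also without a covariate, leaving out female room air gave 0.19 (adjusted p 0.972) and 1.40 (adjusted p 0.947), and leaving out male hyperoxia −0.93 (adjusted p 1.00) and 1.94 (adjusted p 0.107). In classical monocytes Ikzf2 was called for sex at 1.23 (adjusted p 0.0126 by edgeR; 1.18% called), with 64.9% of its female hyperoxia UMIs in 1 cell. It was at 0.44 (adjusted p 0.819) without doublets called by Scrublet and at 1.25 (adjusted p 0.747) with 4 libraries and no hyperoxia covariate. Also without that covariate it was at 0.90 (adjusted p 0.537) without female hyperoxia, 1.23 (adjusted p 0.278) without male hyperoxia and 1.27 (adjusted p 0.643) without male room air, and not called.

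The genes most alike to a member over the 14 classes were ranked by Pearson's r of log-scaled mean CPM among 16909 genes, as a description over classes that share libraries. For Foxp3 they were Gm973 (0.97), Akr1c12 (0.97), Tnfsf11 (0.97), Gm38405 (0.96) and Fstl4 (0.96). For Pdcd1 the first was Tcrg-C1 (0.99), a constant gene of the gamma T cell receptor, followed by Apol7b, A430072P03Rik, Rln3 and Cxcr6 (each 0.99). For Lag3 they were Ccdc136 (0.94), Cenpp, Abcc10, 6330403K07Rik and Rgs16 (0.92). Among the members Foxp3 and Tnfrsf4 were most alike (0.98), and Lag3 was least like the others (0.05 to 0.55).

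Barcodes without a class held 29.9% (Pdcd1) to 49.7% (Lag3) of each member's day 21 UMIs, and 620 of the 1612 Foxp3 UMIs (38.5%). Most of those Foxp3 UMIs, 93.5% to 97.1% per library, lay in barcodes with at least 3 of Cd3d, Cd3e, Cd3g and Trac. Of such barcodes 31.9% to 43.0% also held at least 3 markers of another cell type, against 0.907% to 4.89% of T Cell class cells. These barcodes were not used for any level or test above.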

How the data were processed

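UMI counts per gene and barcode and a class name per barcode were deposited by the authors. The counts are whole numbers, not normalized, made with Cell Ranger 6.0.0 (day 1) or 7.0.1 (day 21), per the file headers; the submitters' processing notes name mm10, Cell Ranger 6.0.0 and Seurat 4.1.1. Whether introns were counted is not given in the sources used here. Barcodes without a class (22.4% to 32.8% at day 21) were left out. Counts were summed per class and library and tested with edgeR 4.0.16 (R 4.3.3; filterByExpr, TMM, quasi-likelihood, two-sided, Benjamini-Hochberg over all genes of a class, threshold 0.05), in classes with at least 50 cells in each of the 4 day 21 libraries and with sex and hyperoxia as terms, which leaves 1 residual degree of freedom. The test was tried on simulated data. The alternatives were DESeq2 1.42.0, scaling by the upper quartile, testing with no low-count filter, dropping the covariate, a stricter cell filter, removal of Scrublet doublets (scanpy 1.11.5; 0.113% to 7.55% of T Cell, T Reg and NK Cells class cells), cells with T cell receptor complex UMIs and leaving out each library, where the 3 remaining libraries were fitted without a covariate. The subsets by Trac or Cd3e, by Trac and by Xist were added after seeing the data. A count of 0 was read as up to 3 counts. Genes were placed by GENCODE M21 (32158 of 32285 IDs matched).

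All 10 members are described in the T Cell, T Reg and NK Cells classes, and in another class only where a member had at least 20 UMIs in a day 21 library or was called; not every such level is given. Other genes are given as counts over their lists, and by value only where they were called or were among the most abundant of their list, again not all, or are said to be chosen afterwards. The members and lists were chosen with earlier results of these data known. Values of 2 marker genes are not reported here.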

Additional observations from a re-analysis of the deposited data

Results flagged for a closer look

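For 8 combinations of a member and a class, the ratio of hyperoxia to room air lay on opposite sides of 1 in the sexes, with counting intervals that exclude 1. The share of all genes that meet this rule is not given here, so the count is not a result particular to the members. In the T Cell class the ratios in females and males were 0.433 and 1.92 for Foxp3, 0.371 and 1.72 for Ctla4, and 0.374 and 1.25 for Icos. They were 0.285 and 2.06 for Ikzf2, 0.153 and 2.13 for Pdcd1, and 0.386 and 2.10 for Tigit. Pdcd1 rested on 44, 13, 22 and 21 UMIs. In female room air 16 of the 44 lay in 1 of the 14 Foxp3 cells (7.14%). These differences between the sexes were not tested, because each ratio compares 1 library with 1 library and the T Cell class was not present at day 1. The female ratios share the female room air library, in which all 10 members were highest. For Ctla4 in the T Reg class the ratios were 1.45 in females and 0.778 in males, and the difference was not tested. For Icos in NK Cells they were 0.449 and 1.97, and the interaction of sex and hyperoxia over 6 libraries, which takes the room air sex difference to be the same at both ages, was −1.40 (SE 0.50, p 0.0170, adjusted p 1 by edgeR's quasi-likelihood test).

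The T Reg class share of T Cell and T Reg cells changed by −30.2 percentage points in females and by 18.3 points in males after hyperoxia, a difference that was not tested.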

How the results depend on the processing

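Each combination of sex and treatment had 1 library of 3 pooled mice, the tests rest on 1 residual degree of freedom, and 2-fold changes were mostly missed on simulated counts. No paired analysis was possible because no combination had more than 1 library; sex was a covariate. Without a filter on low counts, hyperoxia calls numbered 69 in T Cell, 98 in T Reg and 424 in NK Cells, and sex calls 146, 130 and 59. DESeq2 gave 1, 1 and 34 hyperoxia calls. Without doublets there were 15 hyperoxia and 23 sex calls in T Cell and 3 hyperoxia calls in NK Cells. Without the covariate there were 16 hyperoxia calls in NK Cells and 11 sex calls in T Reg. Xist-holding cells gave 6 hyperoxia calls in NK Cells and 3 sex calls in T Reg. Leaving out 1 library, with the other 3 fitted without a covariate, gave 0 to 907 hyperoxia calls in T Cell (907 without male room air), 2 to 66 in T Reg and 0 to 506 in NK Cells, and 5 to 167, 6 to 75 and 0 to 129 sex calls. Members called without the filter were 2 in T Cell (Icos, Ikzf2) and 1 in NK Cells (Ikzf2) for sex, and 1 in T Reg (Tnfrsf4) for hyperoxia. Over all genes these fits called 146 and 59 for sex and 98 for hyperoxia. The share of all genes tested is not given here, so the member counts are not a result particular to the members. When 1 library was left out, members were called in some fits. Such fits leave 1 library in a group, so the counts are not read. Hyperoxia calls of members that kept the sign of the main estimate came only without male room air, which leaves only the female room air library. The T Reg share became 8.19%, 4.70%, 7.87% and 9.49% as cells with a Foxp3 UMI. Among cells with a Trac UMI it was 13.1%, 4.61%, 9.08% and 11.7%. Over cells with Trac or Cd3e it was 39.0%, 6.57%, 14.8% and 18%. Sign changes near 0 were Il2ra for sex in T Reg (0.0092 in cells with T cell receptor complex UMIs, 0.0021 without the filter), Il2ra for hyperoxia in NK Cells (−0.0062 by DESeq2) and Tigit for sex in NK Cells (−0.084 without doublets). Leaving out 1 library at a time changed the sign of these log2 estimates of members. For hyperoxia against room air in T Reg, the ranges were −0.36 to 0.55 for Ctla4, −0.17 to 0.027 for Icos, −0.0035 to 0.17 for Ikzf2, −0.021 to 0.50 for Pdcd1. For hyperoxia against room air in T Cell, the ranges were −0.98 to 0.42 for Ctla4, −0.86 to 0.63 for Foxp3, −1.32 to 0.25 for Icos, −1.65 to 0.91 for Ikzf2, −2.45 to 0.86 for Pdcd1, −0.89 to 0.66 for Tigit, −0.19 to 0.047 for Tnfrsf18, −1.11 to 0.21 for Tnfrsf4. For hyperoxia against room air in NK Cells, the ranges were −0.67 to 0.43 for Icos, −0.58 to 0.10 for Ikzf2, −0.74 to 0.68 for Il2ra, −0.16 to 0.30 for Tnfrsf18. For hyperoxia against room air in Arterial, the ranges were −2.80 to 0.19 for Ikzf2. For female against male in T Reg, the ranges were −0.14 to 0.077 for Icos, −0.17 to 0.026 for Ikzf2, −0.15 to 0.11 for Il2ra, −0.47 to 0.11 for Pdcd1, −0.61 to 0.32 for Tigit, −0.89 to 0.20 for Tnfrsf18, −1.67 to 0.25 for Tnfrsf4. For female against male in T Cell, the ranges were −0.33 to 0.99 for Ctla4, −0.10 to 1.00 for Foxp3, −0.29 to 0.97 for Tigit, −0.066 to 0.18 for Tnfrsf18, −0.10 to 1.133 for Tnfrsf4. For female against male in NK Cells, the ranges were −0.27 to 0.79 for Ctla4, −0.58 to 0.60 for Icos, −0.85 to 0.61 for Il2ra, −0.47 to 0.89 for Pdcd1, −0.46 to 0.65 for Tigit. The causes were not tested.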

Other observations

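At day 1, where the T Cell and T Reg classes held 0 cells, Tnfrsf4 was found in alveolar type 1 (AT1) epithelial cells. Tnfrsf4 had 377 UMIs in the female library (16.6 CPM, exact 95% interval 14.95 to 18.35) and 240 in the male library (13.9 CPM, 12.2 to 15.8). A UMI was present in 15.2% of 2054 and 11.7% of 1765 AT1 cells, and the cell with the most held 1.06% and 1.25% of them. AT1 cells held 74.2% and 61.2% of the Tnfrsf4 UMIs in cells with a class, and gCap had 1.41 and 0.714 CPM. B Cells had higher levels of 22.5 and 18.1 CPM, with 69.7% and 88.0% of those UMIs in 1 cell. At day 21 the AT1 class held 14 to 57 cells and 2 or 3 Tnfrsf4 UMIs per library. This gene and class were chosen after their values were seen.

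Lag3 was found in Myofibroblasts at both ages, at 15.9 and 10.3 CPM in the female and male day 1 libraries and 25.1, 29.5, 23.6 and 15.3 CPM at day 21. Its gCap level was 0.236 to 0.788 CPM. At day 1 Myofibroblasts held 71.3% and 40.5% of the Lag3 UMIs in cells with a class.

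Within the female hyperoxia library, cells without an Xist UMI had less Ikzf2 than cells with one, 0.743 times in the T Cell class (counting interval 0.671 to 0.822), 0.796 times in T Reg (0.727 to 0.871) and 0.789 times in NK Cells (0.692 to 0.899). Every member had a ratio below 1 in the T Cell class. The intervals of Ctla4 (0.819, 0.703 to 0.954) and Icos (0.808, 0.711 to 0.918) also excluded 1 there. In the T Reg class Tnfrsf4 was 0.518 times (0.387 to 0.685) and Tnfrsf18 0.632 times (0.517 to 0.769) as high in the cells without Xist. This split was chosen after seeing the data, and its cause was not tested.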
